A study of Mus musculus with 12 samples.

Results

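The cadherin and protocadherin genes were described across 4 stages of the mouse small-intestinal epithelium. Members were taken by gene symbol: Cdh followed by a number, every Pcdh symbol, Fat1 to Fat4 and Celsr1 to Celsr3. The rule found 101 of the 23366 gene entries, made up of 23 Cdh genes, 7 Fat and Celsr genes, 12 Pcdh genes outside the gene clusters, and 59 rows of the clustered protocadherins (15 Pcdha, 22 Pcdhb and 22 Pcdhg). The clustered rows were kept apart from the other 42 throughout.

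RNA-seq gene counts were used from 12 libraries, 3 in each of 4 groups, all from mice of a mixed C57BL/6 and CD1 background. E12.5 and E14.5 were small-intestinal epithelial cells from embryos of the stages these names give, in days of embryonic development, sorted as positive for the epithelial surface protein EpCAM and negative for the endothelial marker CD31 and the leukocyte marker CD45. ISC were intestinal stem cells sorted from crypts for high Lgr5-EGFP, and AE were cells the labels call enterocytes, sorted with the gate used for the embryonic cells. Both adult groups came from males that carry Lgr5EGFP-Cre-ERT, a knock-in reporter read out in Lgr5-positive cells, at postnatal day 60. Each E12.5 library came from a pool of 20 embryos and each adult library from 1 gut, while the E14.5 pool size is not given in the sources used here, and 50000 sorted cells went into a library. The age entry of each of the 6 embryonic libraries names the opposite day from its title, and the groups here follow the titles, so the direction of E14.5 against E12.5 rests on them.

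Cadherins are transmembrane proteins whose extracellular repeats bind calcium and, in most cases, the same protein on a neighbouring cell. Classical cadherins such as E-cadherin bind catenins and actin at adherens junctions and hold epithelial sheets together. The Fat and Celsr proteins are very large members that take part in planar cell polarity, the alignment of cells within a sheet. Protocadherins lack the catenin-binding tail. The clustered ones are known from neurons, where each cell uses a few of many alternative promoters, and each Pcdhg variable exon is spliced to the same constant exons.

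To show the regulatory sequence of members with clear stage patterns, the 250 bases before the annotated start are printed for 4 of them: Fat3 and Pcdh7, highest at E12.5, Pcdh8, highest in ISC, and Celsr3, highest in AE. The sequences are those of RefSeq on GRCm38.p6, written 5′ to 3′ on the strand of the gene, with every CG pair in capitals.
Fat3: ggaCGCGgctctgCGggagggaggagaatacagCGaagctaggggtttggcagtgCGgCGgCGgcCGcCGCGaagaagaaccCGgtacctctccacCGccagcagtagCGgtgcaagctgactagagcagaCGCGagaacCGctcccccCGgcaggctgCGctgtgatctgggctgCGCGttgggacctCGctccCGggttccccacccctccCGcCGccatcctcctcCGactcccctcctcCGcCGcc
Pcdh7: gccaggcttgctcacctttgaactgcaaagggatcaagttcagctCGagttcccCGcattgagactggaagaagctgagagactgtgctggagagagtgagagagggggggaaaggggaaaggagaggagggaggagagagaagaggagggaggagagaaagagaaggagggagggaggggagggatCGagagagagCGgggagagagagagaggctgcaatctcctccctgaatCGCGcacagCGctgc
Pcdh8: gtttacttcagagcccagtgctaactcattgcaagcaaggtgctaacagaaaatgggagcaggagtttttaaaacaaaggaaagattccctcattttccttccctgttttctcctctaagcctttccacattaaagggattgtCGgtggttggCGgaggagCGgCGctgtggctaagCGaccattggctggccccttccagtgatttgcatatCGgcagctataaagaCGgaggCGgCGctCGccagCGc
Celsr3: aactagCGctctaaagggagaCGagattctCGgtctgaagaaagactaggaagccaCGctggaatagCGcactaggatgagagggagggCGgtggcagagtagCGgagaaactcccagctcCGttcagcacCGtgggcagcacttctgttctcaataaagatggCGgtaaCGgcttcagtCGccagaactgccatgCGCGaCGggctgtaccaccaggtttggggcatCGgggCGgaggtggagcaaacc

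The Fat3 window lies at chr9:16502055-16502304 on the minus strand and holds 27 CG pairs, and the Pcdh7 window at chr5:57717831-57718080 on the plus strand holds 7. The Pcdh8 window at chr14:79771313-79771562 on the minus strand holds 11, and the Celsr3 window at chr9:108825795-108826044 on the plus strand holds 17. RefSeq promoter entries matched 28 of the 101 members by symbol, with 31 windows. Their median was 11 CG pairs and 58% G or C, against 6 CG pairs and 52.4% over all 32851 windows of that length in the table. A set of 3 short motifs was searched on both strands: CAGGTG, the letters of an E-box bound by Snail and Zeb repressors, was found in 17.2% of all windows, TTTATNG, letters of a Cdx site, in 9.81%, and TATAAA in 12.4%. Celsr3 held 1 match of the Cdx letters, 98 bases before the start. Pcdh8 held overlapping matches of the Cdx letters and TATAAA, 31 and 30 bases before the start, while Fat3 and Pcdh7 held none of the 3 in this window. A match is a run of letters only, and factor binding was not measured.

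Total gene counts ran from 12587626 to 45190749 a library, and levels below are TMM-normalised counts per 1000000 counted reads (CPM), as mean ± SD of 3 libraries or for each library in turn. Replicates of a group all differed by more than sampling noise. The sorts matched their labels in the check genes: Epcam, the surface protein used to sort, was present in every library at 429 CPM or more, Lgr5 averaged 507 ± 39.6 CPM in ISC and 81.8 ± 3.69 or less elsewhere, and Alpi, an enterocyte brush-border enzyme, averaged 2823 ± 893 CPM in AE against 27.8 ± 16.1 in ISC. The gate of AE does not remove secretory cells, whose 7 listed markers summed to 10875 to 15084 CPM there, and AE replicate 1 stood apart with 22214 CPM of enterocyte markers against 48085 and 52769 in the other 2. Reads listed as not uniquely aligned were present at E12.5 and ISC and listed at 0 at E14.5 and AE, so each step from one stage to the next crosses this difference, while the comparisons of ISC with E12.5 and of AE with E14.5 do not. The part of this difference in the results was not tested. A p-value below is the adjusted p of edgeR's quasi-likelihood test over 15342 genes, called when under 0.05. With bulk RNA, fewer cells of a type and less RNA per cell cannot be told apart.

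Most members that passed the filter were highest in the early embryo, while Cdh1, Cdh17, Fat1 and Pcdh1, highest in AE, carried most of the reads. Of the 101, 67 passed the filter on low counts: 16 Cdh, all 7 Fat and Celsr, 9 non-clustered Pcdh, 13 Pcdhb and 22 Pcdhg, with no Pcdha row, and 3 Pcdha rows had no read in any library. Of the 67, 55 had their highest mean at E12.5, 5 at E14.5, 1 in ISC and 6 in AE. The number of members with a mean of at least 1 CPM was 54 at E12.5, 45 at E14.5, 28 in ISC and 12 in AE. Such counts were not made over all genes, so they describe the members only. Of the 55 highest at E12.5, 22 were Pcdhg rows, which share sequence. The summed reads were also lower at E14.5 than at E12.5 and were higher in each adult group: all members summed to between 2845 and 2967 CPM at E12.5, 2400 and 2611 at E14.5, 3411 and 3722 in ISC, and 5642 and 6734 in AE. Cdh1, Cdh17, Fat1 and Pcdh1 together held 66.7% to 72.1% of those reads at E12.5, 89.5% to 89.9% at E14.5, 94.9% to 95.5% in ISC and 98.4% to 98.5% in AE, shares that depend on transcript length.

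**Figure D1:**
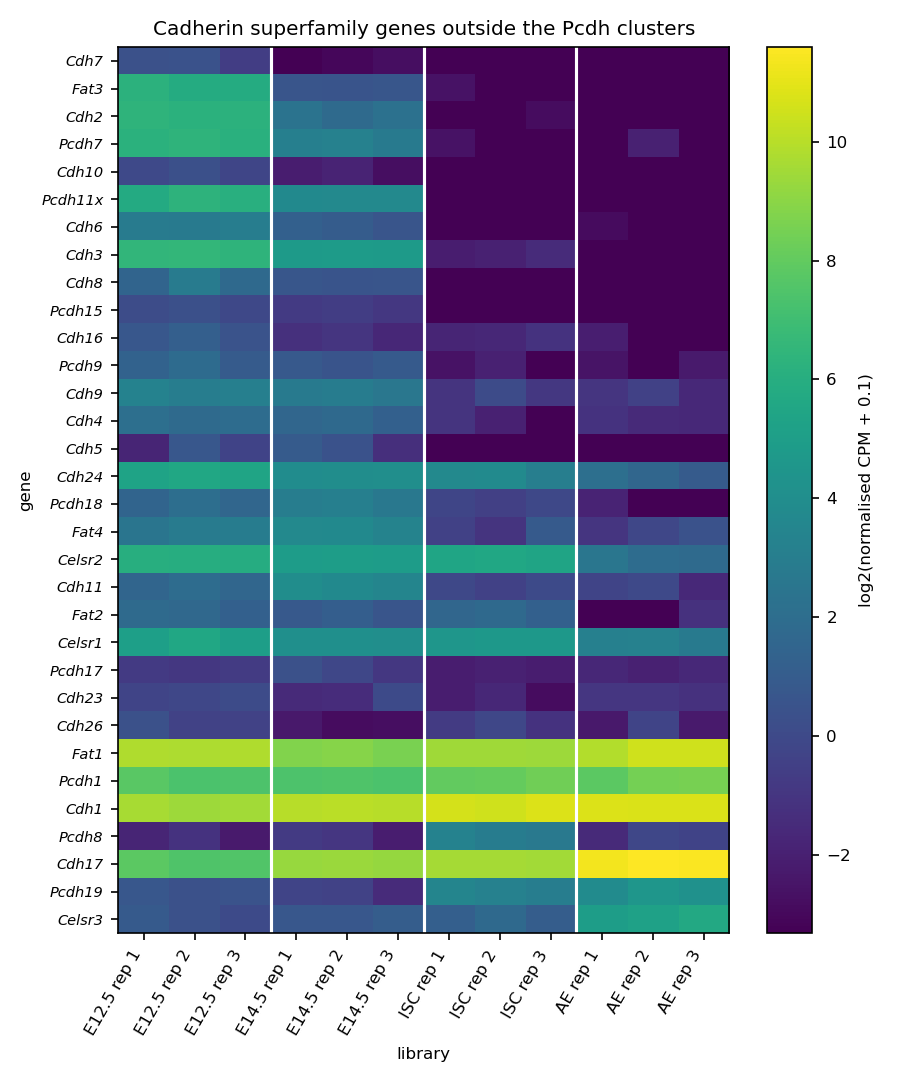
Levels of the 32 members outside the clusters that passed the filter, as log2(normalised CPM + 0.1), with 1 column a library and 1 row a gene. Rows are ordered by the centre of their level over the groups from E12.5 to AE, weighted by the group means. The upper rows are brighter in the 3 E12.5 libraries than in the 6 adult ones, and Celsr3, Pcdh19, Cdh17 and Pcdh8 at the bottom brighten in an adult group.

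Counts of called members stand beside the share called over all genes, because a large share of all genes changed in these comparisons. Since a member could pass the filter through its one high group, these counts describe the members that passed and support nothing beyond that. From E12.5 to E14.5, 5 members rose and 47 fell of 67, where 49.2% of all genes tested were called, 23.6% higher and 25.6% lower. From E14.5 to ISC, 10 rose and 33 fell, beside 60.7% called over all genes, 30.2% higher and 30.6% lower. From ISC to AE, 4 rose and 28 fell, beside 67.8% (32.6% higher and 35.2% lower), so the share of members called at this last step was below that of all genes. In the pairs that do not cross the difference in listed reads, 6 members were higher and 57 lower in ISC than at E12.5 (68.5% called over all genes, 33.9% higher and 34.6% lower), and 8 higher and 53 lower in AE than at E14.5 (78.2%, with 36.7% higher and 41.5% lower). AE against E12.5 gave 6 higher and 58 lower (82.1%, with 38.4% higher and 43.7% lower). The median log2 change of the members that passed was -1.58, -1.08 and -1.13 over the 3 successive steps, against -0.02, -0.00 and -0.05 over all genes tested. With groups at 0 set to their bound, and members of 3 counts or fewer in both groups left out, the medians of the last 2 steps were -0.96 and -1.45. These medians therefore cover fewer members.

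The clustered rows were 35 of the 67 members that passed. They made up 30 of the 47 falls at the first step, 15 of 33 at the second and 21 of 28 at the third. Outside the clusters, of 32 members that passed, 5 rose and 17 fell from E12.5 to E14.5, 9 rose and 18 fell to ISC, and 4 rose and 7 fell to AE. Of the 35 clustered rows, 0 rose and 30 fell, then 1 rose and 15 fell, then 0 rose and 21 fell. The shares called were 68.8%, 84.4% and 34.4% outside the clusters and 85.7%, 45.7% and 60% within them. Over all genes they were 49.2%, 60.7% and 67.8%. By family, the first step counted 3 rises and 9 falls among Cdh genes, 1 and 4 among Fat and Celsr genes, and 1 and 4 among the other Pcdh genes. At the second step these were 3 and 10, 3 and 2, and 3 and 6, and at the third 1 and 2, 2 and 3, and 1 and 2. By the same steps, 75%, 81.2% and 18.8% of the Cdh genes were called. For Fat and Celsr genes the share was 71.4% at each, and for the other Pcdh genes 55.6%, 100% and 33.3%. The 5 that rose at the first step were Cdh1, Cdh11, Cdh17, Fat4 and Pcdh18, and the 4 that rose at the third were Cdh17, Celsr3, Fat1 and Pcdh19.

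Among the classical cadherins, Cdh1 (chromosome 8) encodes E-cadherin, the main adhesion molecule of epithelial junctions. Its level in the 3 replicates was 797, 692 and 730 CPM at E12.5, 1017, 1046 and 1005 at E14.5, 1574, 1467 and 1813 in ISC, and 1829, 1727 and 1724 in AE. The embryonic groups and ISC did not overlap, while ISC and AE did. Cdh1 rose by 0.47 ± 0.11 (log2 ± SE, adjusted p = 0.00376) from E12.5 to E14.5 and by 0.66 ± 0.11 (adjusted p = 0.000172) to ISC, and its log2 difference of 0.12 ± 0.11 from ISC to AE did not pass the test (adjusted p = 0.357). The 7 listed epithelial markers moved with it at the first 2 steps, with 6 and then 5 higher and none lower, at medians of 0.82 and 0.88. They summed to 1112 to 1357 CPM at E12.5, 2278 to 2378 at E14.5, 3676 to 4215 in ISC and 10440 to 12439 in AE. The part of this rise in the Cdh1 level was not tested.

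Cdh17 encodes LI-cadherin, a cadherin with a short cytoplasmic tail found on the lateral membrane of intestinal cells. Its level was 232, 179 and 187 CPM at E12.5, 622, 649 and 600 at E14.5, 778, 775 and 747 in ISC, and 2542, 3099 and 2898 in AE. All 4 groups stood apart. It rose 3.12-fold from E12.5 to E14.5 (adjusted p = 2.47e-07) and 3.71-fold from ISC to AE (adjusted p = 1.93e-08), while the 1.23-fold step from E14.5 to ISC was borderline (adjusted p = 0.0493) and was lost when any of 10 of the 12 libraries was left out (0.0579 to 0.148). Per kilobase of exon, Cdh17 averaged 44.6 CPM at E12.5 against 162 for Cdh1, and 636 against 385 in AE, so the order of their levels was reversed.

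Cdh3, which encodes P-cadherin, lies next to Cdh1 on chromosome 8 with 0 protein-coding genes between them, and it took the opposite course. It was at 91.7, 92.7 and 83.2 CPM at E12.5, 27.5, 28.6 and 27.6 at E14.5, 0.127, 0.163 and 0.261 in ISC, and 0 in all 3 AE libraries. No group overlapped another. It fell 3.2-fold from E12.5 to E14.5 (adjusted p = 3.43e-07) and 142-fold from E14.5 to ISC (adjusted p = 3.04e-11). Against a floor of 3 counts over the 3 AE libraries, it was at least 461-fold lower in AE than at E14.5.

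Cdh2, which encodes N-cadherin, the classical cadherin of neural and mesenchymal cells, was also an E12.5 transcript here. Its level was 83.1, 73.0 and 78.2 CPM at E12.5, 5.03, 3.49 and 4.57 at E14.5, a single read in the 3 ISC libraries together and none in AE. The fall from E12.5 to E14.5 was 18-fold (adjusted p = 1.09e-08), and AE was at least 1290-fold below E12.5. The ratio of E14.5 to ISC rests on that 1 read, at 243 with an exact 95% interval of 43.4 to 9609 that covers counting error only. Cdh2 fell at the step where the mesenchymal markers rose: the 12 listed markers summed to 169 to 210 CPM at E12.5 and 314 to 390 at E14.5, with 10 of 11 tested higher and 1, Vim, lower. The 10 listed enteric neural markers summed to 20.5 to 21.1 CPM at E12.5, 24.5 to 26.2 at E14.5, 4.30 to 4.96 in ISC and 6.80 to 10.6 in AE, with 2 higher and 2 lower at the embryonic step.

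**Figure D2:**
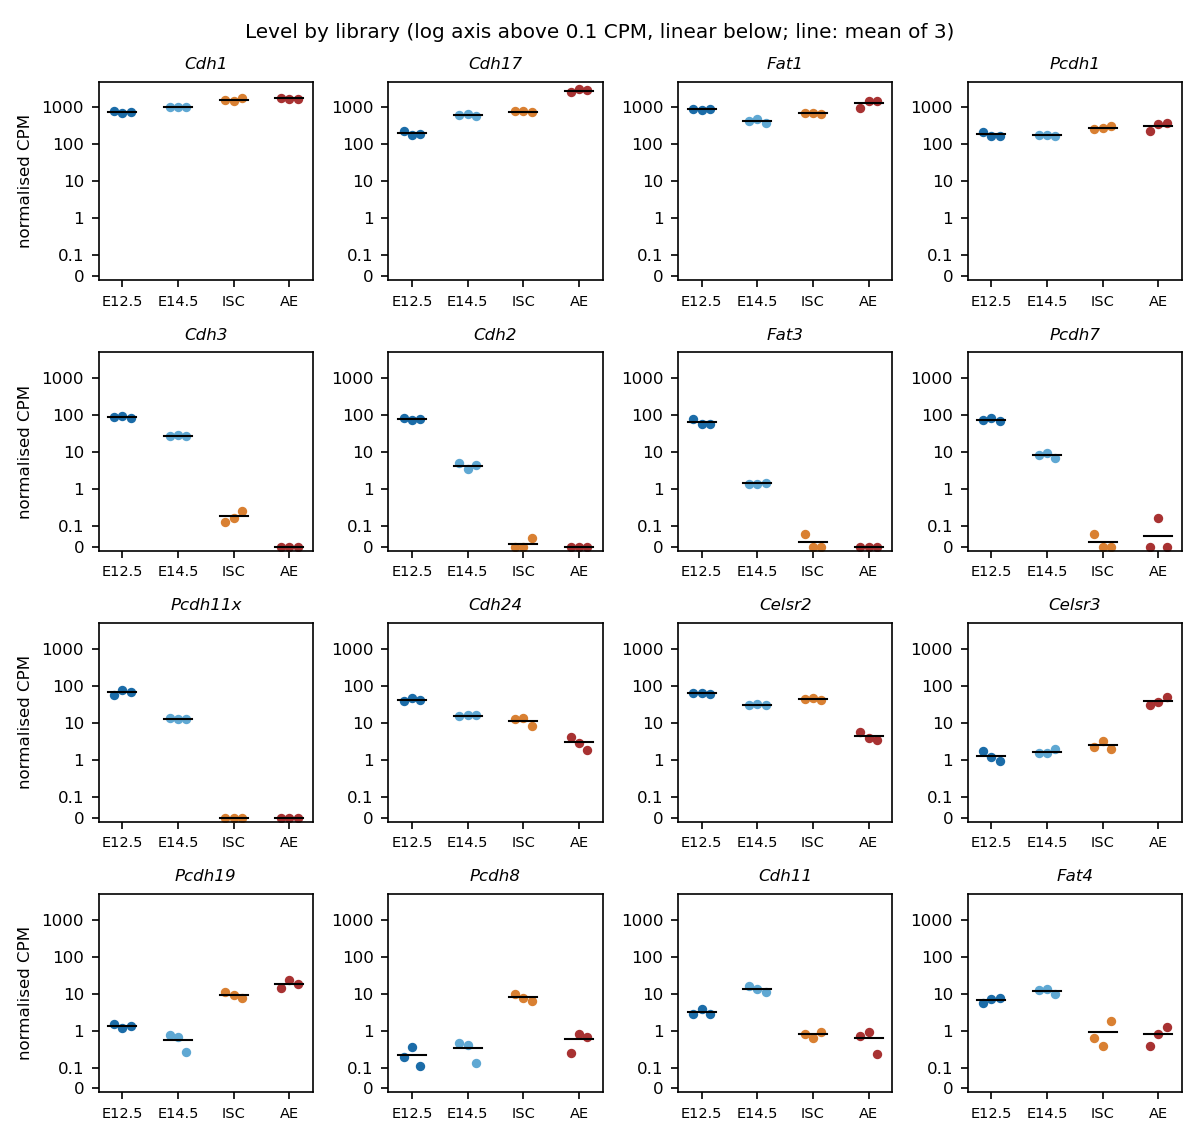
Normalised CPM of 16 members in each library, with a point for each of 3 replicates and a line at their mean, on an axis that is logarithmic above 0.1 CPM and linear below. Cdh3, Cdh2, Fat3, Pcdh7 and Pcdh11x drop to or near 0 in both adult groups, Pcdh8 is highest in the 3 ISC libraries, and Celsr3 is high in the 3 AE libraries.

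Other cadherins of the embryo were lower. Cdh24, a type II cadherin, was the one of them that persisted in the adult, at 42.5 ± 3.95 CPM at E12.5, 15.8 ± 0.61 at E14.5, 11.6 ± 3.07 in ISC and 2.99 ± 1.19 in AE. Its libraries were 39.4, 46.9 and 41.2, then 15.2, 15.9 and 16.4, then 12.9, 13.8 and 8.09, then 4.20, 2.94 and 1.83 CPM, with no overlap between groups. It fell at the embryonic step (2.69-fold, adjusted p = 8.05e-05) and from ISC to AE (3.59-fold, adjusted p = 1.39e-05), and the step from E14.5 to ISC did not pass (adjusted p = 0.0819).

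The type II cadherins Cdh6, Cdh8 and Cdh9 and the type I Cdh4 (R-cadherin) had E12.5 means of 7.33 ± 0.409, 4.44 ± 2.51, 8.65 ± 0.912 and 3.84 ± 0.367 CPM. Cdh6 and Cdh8 fell by E14.5 (3.87-fold, adjusted p = 3.68e-05, and 3.09-fold, adjusted p = 0.00611), whereas Cdh9 and Cdh4, at 6.84 ± 0.758 and 2.85 ± 0.563 CPM at E14.5, did not pass the test (adjusted p = 0.239 and 0.305). In ISC, Cdh6 and Cdh8 had no read, and Cdh9 and Cdh4 were at 0.598 ± 0.332 and 0.181 ± 0.191 CPM. Cdh16, known from kidney tubules, fell 5.1-fold from 1.68 ± 0.444 CPM at E12.5 to 0.311 ± 0.086 at E14.5 (adjusted p = 0.000306). Cdh7, at 1.00 ± 0.393 CPM at E12.5, had 2 reads at E14.5 and none in the adult groups, and 5 further members outside the clusters passed the filter with a mean under 1 CPM in every group (Cdh10, Cdh23, Cdh26, Pcdh15 and Pcdh17).

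A small set was highest at E14.5, as most of the mesenchymal markers were. Vim was the exception, at 160 ± 24.2 CPM at E12.5 and 72.6 ± 0.8 at E14.5. Cdh11 encodes OB-cadherin, known from mesenchymal cells and osteoblasts. It was at 2.85, 3.77 and 2.90 CPM at E12.5, 15.9, 13.6 and 10.9 at E14.5, and under 1 CPM in all 6 adult libraries. E14.5 stood above every other library. Cdh11 rose 4.26-fold to E14.5 (adjusted p = 6.42e-06) and was 16.7-fold lower in ISC (adjusted p = 1.88e-08).

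Pcdh18, a delta-2 protocadherin, rose 2.28-fold (adjusted p = 0.00211), with 2.73, 4.17 and 2.97 CPM at E12.5 against 7.75, 8.49 and 6.11 at E14.5, and fell 10.1-fold to ISC (adjusted p = 6.83e-07). Fat4, the receptor of the Fat family that binds Dchs1, was at 5.58, 7.24 and 7.59 CPM at E12.5 and 12.9, 13.3 and 10.0 at E14.5. Its groups did not overlap, but the rise of 0.84 ± 0.32 on the log2 scale was borderline (adjusted p = 0.0434), and was lost when any of the 6 embryonic libraries was left out (adjusted p from 0.0533 to 0.143). At E14.5 the mesenchymal sum ranged from 314 to 390 CPM, with Col3a1 at 67.6 ± 11.0 and Myh11 at 61.4 ± 11.1 CPM, and in the adult groups it was 4.49 to 10.0 CPM with Des and Twist1 at 0 in ISC. The embryonic libraries were sorted as EpCAM-positive, and these mesenchymal transcripts were read in them. The part of mesenchymal cells in the levels of Cdh11, Pcdh18 and Fat4 was not tested. Cdh5, the VE-cadherin of endothelium, was at 1.87 CPM or less in each embryonic library and had no read in the adult groups, and its difference between the embryonic stages did not pass the test (adjusted p = 0.519).

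Of the Fat and Celsr genes, Fat1, the large cadherin that binds actin regulators, was the most abundant, with a dip at E14.5. It was at 891, 875 and 894 CPM at E12.5, 435, 471 and 383 at E14.5, 712, 723 and 670 in ISC, and 953, 1448 and 1492 in AE. No group overlapped another, and AE replicate 1, which also held the fewest enterocyte markers, was the lowest of its group. The part of that difference in Fat1 was not tested. Fat1 fell 2.06-fold (adjusted p = 7.66e-05), then rose 1.63-fold (adjusted p = 0.00105) and 1.85-fold (adjusted p = 0.000131). The change from ISC to AE differed from that from E12.5 to E14.5 by 1.93 ± 0.21 on the log2 scale (adjusted p = 6.25e-06).

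Fat3 showed the sharpest early fall of the Fat genes. It was at 77.0, 58.5 and 57.0 CPM at E12.5 and at 1.42, 1.39 and 1.49 at E14.5, a 44.9-fold drop (adjusted p = 5.17e-09). In the adult groups 1 read was found in ISC and none in AE. Its window held the most CG pairs of the 4 printed. Fat2 was low and present in 3 groups, at 3.02 ± 0.624, 1.74 ± 0.322 and 2.85 ± 0.494 CPM at E12.5, E14.5 and ISC, with 3 reads in the AE libraries together. The ratio of ISC to AE was 46.2, with an exact 95% interval of 15.5 to 227.

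The 3 Celsr genes, 7-pass cadherins of the core polarity pathway, split in the adult. Celsr2 was at 65.3, 62.9 and 60.7 CPM at E12.5, 30.1, 31.5 and 30.8 at E14.5, 43.5, 46.5 and 41.9 in ISC, and 5.75, 3.84 and 3.43 in AE. Celsr1 was at 34.5, 46.7 and 33.0 CPM, then 17.2, 17.4 and 16.4, then 22.6, 24.4 and 24.9, then 8.93, 9.23 and 6.62. Both had the same order of groups, with E12.5 highest, ISC second and AE lowest, and no overlap. Both fell at the embryonic step, rose to ISC and fell to AE, Celsr2 9.65-fold (adjusted p = 1.27e-09) and Celsr1 2.86-fold (adjusted p = 1.42e-06) at the last step.

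Celsr3, known for its part in axon guidance, ran the other way. It was at 1.76, 1.2 and 0.917 CPM at E12.5, 1.54, 1.54 and 1.98 at E14.5, 2.22, 3.32 and 2.00 in ISC, and 31.3, 37.2 and 51.2 in AE. The AE libraries lay far above the other 9, which did not exceed 3.32 CPM. The rise from ISC to AE was 15.8-fold (adjusted p = 1.81e-08), and the steps before it did not pass the test (adjusted p = 0.344 and 0.0841). Per kilobase, Celsr3 averaged 3.30 CPM in AE against 0.377 for Celsr2 and 0.751 for Celsr1. Enterocyte and secretory markers were both higher in AE than in ISC (7 of 7 and 6 of 7), with Chga at 83.4 ± 20.1 against 5.15 ± 0.885 CPM. Of the 10 neural markers, 3 were higher and 1 lower in AE, with Hand2 at 0 there. The part of these cells in the Celsr3 level was not tested.

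The protocadherins outside the clusters followed several courses: Pcdh7 and Pcdh11x were embryonic, Pcdh1 was present throughout, Pcdh19 was higher in the adult and Pcdh8 in ISC. Pcdh7, a delta-1 protocadherin, was at 74.3, 81.7 and 70.9 CPM at E12.5, 8.59, 9.48 and 7.07 at E14.5, and at 3 reads over the 6 adult libraries. It fell 8.97-fold at the embryonic step (adjusted p = 4.29e-08), and the ratio of E14.5 to ISC was 497, with an exact 95% interval of 88.9 to 19634. Of its 50-base stretches 20.4% occur in transcripts of other genes, the most of any member outside the clusters.

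Pcdh11x, an X-linked delta-1 protocadherin, was at 56.3, 79.4 and 68.9 CPM at E12.5 and 13.2, 12.9 and 12.8 at E14.5, a 5.26-fold fall (adjusted p = 1.15e-06). No read was found in any of the 6 adult libraries. Levels were therefore at least 247-fold lower in ISC and 214-fold lower in AE than at E14.5. The adult animals were males, and the sex of the pooled embryos is not given in the sources used here.

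Pcdh1, an epithelial delta-1 protocadherin, was present throughout, at 220, 168 and 172 CPM at E12.5, 174, 182 and 168 at E14.5, 259, 272 and 324 in ISC, and 227, 360 and 369 in AE. The embryonic stages overlapped (adjusted p = 0.673), and so did the adult groups (adjusted p = 0.413). The step from E14.5 to ISC was a 1.63-fold rise (adjusted p = 0.00251). As for Fat1, AE replicate 1 was the lowest of its group. Pcdh9, another delta-1 protocadherin, was at 2.65 ± 0.916 CPM at E12.5, 1.61 ± 0.227 at E14.5, and 0.0756 ± 0.0824 and 0.0614 ± 0.0576 in ISC and AE.

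Pcdh19, an X-linked delta-2 protocadherin, was low in the embryo, at 1.54, 1.2 and 1.32 CPM at E12.5 and 0.747, 0.663 and 0.264 at E14.5. In the adult it was at 11.1, 9.31 and 7.87 CPM in ISC and 14.4, 23.1 and 18.4 in AE, and no group overlapped another. It fell 2.28-fold (adjusted p = 0.00673), rose 15.7-fold to ISC (adjusted p = 3.57e-08) and rose 1.97-fold again to AE (adjusted p = 0.00206).

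Pcdh8, known as paraxial protocadherin from early embryos, was the only one of the 67 whose highest mean was in ISC. It was at 9.63, 7.57 and 6.48 CPM there, against 0.192, 0.355 and 0.110 at E12.5, 0.473, 0.410 and 0.132 at E14.5, and 0.245, 0.817 and 0.685 in AE. The 3 ISC libraries were well above the other 9. It rose 21.4-fold from E14.5 (adjusted p = 4.90e-07) and fell 15.5-fold to AE (adjusted p = 2.84e-06). The change at the adult step differed from that at the embryonic one by -4.72 ± 0.71 on the log2 scale (adjusted p = 8.64e-05).

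The same difference of steps was tested in each member, and 17 of 67 were called, 9 higher and 8 lower, beside 54.6% of all genes, 25.2% higher and 29.4% lower. The largest outside the clusters were Pcdh8, Fat2 (-4.61 ± 0.82, adjusted p = 0.000316), Pcdh18 (-4.03 ± 0.65, adjusted p = 0.00015) and Celsr3 (3.64 ± 0.39, adjusted p = 4.69e-06). Celsr2 and Fat1 were also called, with opposite signs: Celsr2 fell more at the adult step (-2.24 ± 0.20, adjusted p = 1.02e-06) and Fat1 fell at the embryonic step and rose at the adult one.

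The clustered protocadherins on chromosome 18 differed widely in level. Under the TMM scaling, the sums of Pcdhg and Pcdhb were lower in each later group, with no overlap between libraries. The single rows did not all follow. Summed over its rows, Pcdhg was at 232, 331 and 298 CPM at E12.5, 73.3, 73.2 and 72.7 at E14.5, 53.3, 59.1 and 65.1 in ISC, and 21.7, 15.1 and 15.3 in AE. Pcdhb summed to 19.8 ± 0.700, 9.33 ± 1.46, 3.34 ± 0.519 and 2.14 ± 0.748 CPM in the same order. With another scaling, by relative log expression factors, the Pcdhb sums of ISC and AE overlapped, at 2.75 CPM in ISC replicate 2 and 2.83 in AE replicate 3. Pcdha summed to 1.67 ± 0.552 CPM at E12.5 and 0.496 ± 0.196 at E14.5, with 3 reads in ISC and 1 in AE, too few to set those 2 groups apart. Many 50-base stretches of these rows occur in transcripts of other genes, within the cluster or outside it. The share was 35.5% to 99% for Pcdhg, 48.2% to 91.6% for Pcdha and a median of 4.48% for Pcdhb. The split of reads among the Pcdhg and Pcdha rows is therefore uncertain.

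**Figure D3:**
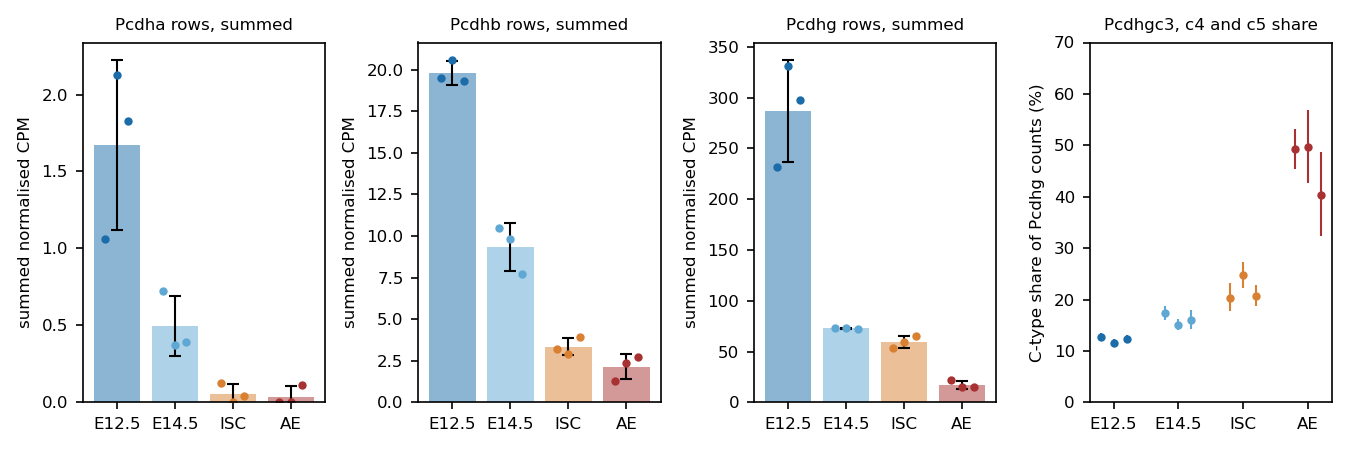
The 3 left panels show the normalised CPM summed over the rows of each cluster, with bars for means, error bars for the SD and a point for each of 3 libraries. The right panel shows the share of Pcdhg counts in Pcdhgc3, Pcdhgc4 and Pcdhgc5 in each library with its 95% Wilson interval, from 11.5% to 12.7% at E12.5 up to 40.3% to 49.7% in AE.

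All 22 Pcdhg rows fell from E12.5 to E14.5, from 1.34 in Pcdhgc3 to 3.23 in Pcdhgb8 on the log2 scale. Pcdhgb1 had the highest E12.5 mean of the rows and was at 26.6, 32.1 and 31.3 CPM there, 10.2, 10.6 and 10.6 at E14.5, 3.23, 5.77 and 5.74 in ISC, and 0.806, 0 and 0.343 in AE. Pcdhga7 followed closely, at 25.8, 30.2 and 29.0 CPM, then 9.19, 7.63 and 8.70, then 3.48, 4.36 and 6.74, then 0.841, 0.408 and 0.571. Neither row had overlapping groups, and both fell at all 3 steps (adjusted p from 1.38e-06 to 0.00589). Pcdhga3 fell steadily as well, from 16.5 ± 2.49 to 3.96 ± 0.511, 0.884 ± 0.356 and 0.173 ± 0.171 CPM. Pcdhga10 was instead at 17.7 ± 5.76, 4.12 ± 0.120, 5.43 ± 0.842 and 1.19 ± 0.247 CPM, and its step from E14.5 to ISC did not pass the test (adjusted p = 0.157), while Pcdhgb6 was at 12 ± 3.28, 2.51 ± 0.151, 3.62 ± 0.221 and 0.833 ± 0.328 CPM (adjusted p = 0.0707 at that step). From E14.5 to ISC 7 of the 22 rows fell, 1 rose and 14 did not pass, and from ISC to AE 18 fell and 4 did not pass. The shares called over the 3 steps were 100%, 36.4% and 81.8%, beside 49.2%, 60.7% and 67.8% of all genes.

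The Pcdhb genes have a single exon each, and most share little sequence with other genes, up to 64.2% in the highest row. Of 13 that passed the filter, 8 fell at each of the first 2 steps and 3 at the last, with no rise. These are 61.5%, 61.5% and 23.1%, beside 49.2%, 60.7% and 67.8% of all genes called. The highest E12.5 means were those of Pcdhb16, Pcdhb19 and Pcdhb17, with 2.61 ± 0.197, 2.51 ± 0.684 and 2.44 ± 0.228 CPM. Pcdhb16 and Pcdhb17 fell by E14.5 (adjusted p = 0.0373 and 0.00292), and Pcdhb17 and Pcdhb19 fell from E14.5 to ISC (adjusted p = 0.0157 and 0.0197). Pcdhb14, Pcdhb18 and Pcdhb20 were the ones that fell from ISC to AE, each from 0.331 CPM or less and with an adjusted p between 0.0136 and 0.0466, and Pcdhb22 fell once, from 0.949 ± 0.0872 CPM at E14.5 to 0.121 ± 0.127 in ISC (adjusted p = 0.00135). At these low counts several calls were lost when a single library was left out, in some cases a library of neither group compared. The call of Pcdhb16 was lost without any of the 6 embryonic libraries (0.0537 to 0.143), and those of Pcdhb17 and Pcdhb19 from E14.5 to ISC without any of 3 libraries each (0.0606 to 0.079, without E14.5 replicate 1 or ISC replicate 2 or 3, and 0.0543 to 0.0799, without E14.5 replicate 2 or ISC replicate 1 or 3). From ISC to AE, Pcdhb14 was lost without any of 8 libraries (0.054 to 0.264), Pcdhb20 without any of 10 (0.0506 to 0.148), and Pcdhb18 without ISC replicate 1 or AE replicate 1 (0.0545 and 0.103). Pcdhb14 at that step was also lost under relative log expression factors (0.0519), no filter (0.0564) and DESeq2 (0.0698), and Pcdhb20 under no filter (0.0626) and DESeq2 (0.0988).

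The C-type rows, the last 3 of the Pcdhg cluster, made up a larger share of the cluster's counts in each later group. Pcdhgc3 was at 24.0, 28.4 and 26.6 CPM at E12.5, 11.0, 9.73 and 10.4 at E14.5, 8.17, 10.9 and 9.87 in ISC, and 7.46, 4.82 and 4.11 in AE. Pcdhgc4 was the row that rose from E14.5 to ISC, from 0.996, 0.722 and 0.659 CPM to 1.84, 2.61 and 2.43 (2.87-fold, adjusted p = 0.000753), and it was at 2.66, 1.8 and 1.48 in AE (adjusted p = 0.688). Together the 3 held 12.2% ± 0.624 of all Pcdhg counts at E12.5, 16.1% ± 1.11 at E14.5, 21.9% ± 2.52 in ISC and 46.4% ± 5.29 in AE (n = 3 each). The groups did not overlap. The 3 rows did not move alike: from E12.5 to E14.5 the share of Pcdhgc3 went from 9.3% to 14.2%, while that of Pcdhgc4 and Pcdhgc5 together went from 2.93% to 1.94%, before 5.61% in ISC and 15.3% in AE. This share was computed after the values of the rows had been seen and carries no test.

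**Figure D4:**
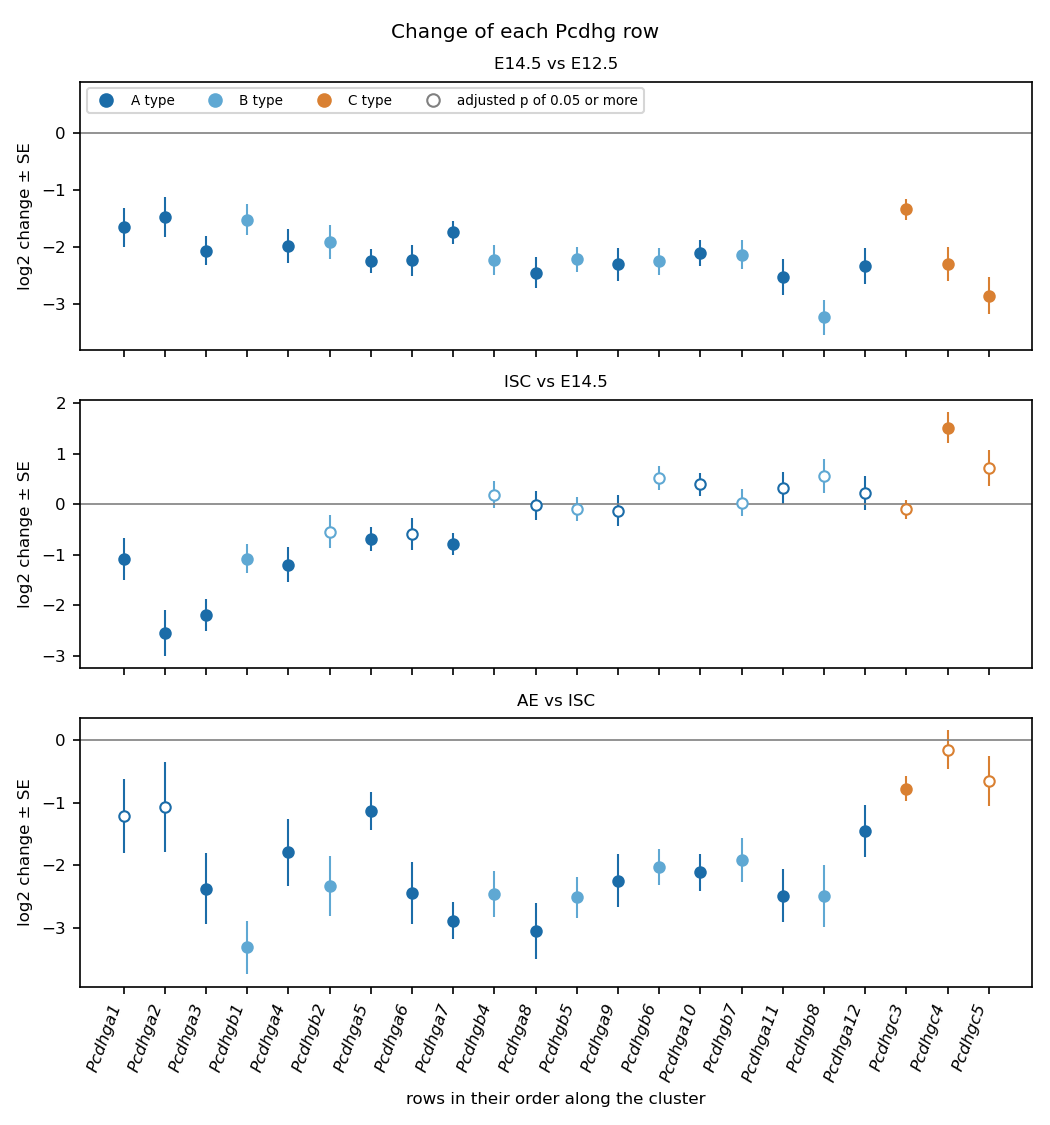
The log2 change of each Pcdhg row, with its SE, for the 3 successive steps, in the order of the rows along the cluster from Pcdhga1 to Pcdhgc5; open points did not pass the test. At the step from E14.5 to ISC the rows from Pcdhga1 to Pcdhga7 lie between -2.55 and -0.54, and those from Pcdhgb4 onward between -0.13 and 1.52.

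The change from E14.5 to ISC also followed the order of the rows along the cluster. Pcdhga2 and Pcdhga3, at the upstream end, fell by 2.55 and 2.19 on the log2 scale, and Pcdhga1, Pcdhgb1 and Pcdhga4 by 1.09, 1.08 and 1.2, whereas no row from Pcdhgb4 to Pcdhga12 passed the test. The call of Pcdhga1 was lost without E14.5 replicate 1 or 3 or ISC replicate 1 or 2 (0.0798 to 0.0984). Pcdhga5, which fell by 0.69, lost its call without E14.5 replicate 2 or ISC replicate 1 or 3 (0.052 to 0.0732). Spearman's rho between position and change was 0.88 over the 22 rows and 0.91 over the 19 A- and B-type rows. With each ISC library set against the E14.5 mean, rho over the 19 rows was 0.91, 0.72 and 0.81. From E12.5 to E14.5 the order ran the other way at -0.77, and from ISC to AE it was -0.17. ISC against E12.5, which does not cross the difference in listed reads, gave 0.72, with 0.74, 0.32 and 0.51 for the single ISC libraries. These are descriptions of neighbouring rows that share sequence, and no p-value is given.

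Genes that work with the cadherins were read from 8 lists, whose counts stand against 49.2%, 60.7% and 67.8% of all genes called at the 3 steps, and whose medians stand against -0.02, -0.00 and -0.05. Of the 13 cadherin-catenin genes tested, 3 rose and 4 fell from E12.5 to E14.5, 1 rose and 5 fell to ISC, and 7 rose and 2 fell to AE, with median log2 changes of -0.09, -0.22 and 0.39. The shares called, 53.8%, 46.2% and 69.2%, were near or below those of all genes. Jup (plakoglobin), which joins both junction types, rose at each step, from 118 ± 20.3 to 186 ± 3.29, 275 ± 18.0 and 393 ± 46.9 CPM, and Arvcf, a p120-related catenin, fell at each, from 38.0 ± 3.02 to 5.04 ± 0.979 CPM. Of 9 desmosomal genes, 4 rose and 2 fell, then 5 rose and 2 fell, then 5 rose and 1 fell, with medians of 0.50, 0.95 and 0.61. The medians were 0.29, 0.99 and 0.70 with groups at 0 set to their bound and genes of 3 counts or fewer in both groups left out. Pkp1, a desmosomal plaque protein, went from 0.0506 ± 0.0330 CPM at E14.5 to 81.9 ± 4.40 in ISC (adjusted p = 1.61e-11) and 47.4 ± 13.2 in AE, and Perp, a desmosomal membrane protein, from 16.3 ± 2.17 at E12.5 to 269 ± 37.7 in AE.

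The polarity partners of Fat and Celsr mostly fell. Of 15 tested, 1 rose and 9 fell at the embryonic step, and 1 rose and 11 fell at each of the next 2, with medians of -0.46, -1.43 and -1.86 (-1.64 with groups at 0 set to their bound). Dchs1, the ligand of Fat4, fell from 66.5 ± 4.47 CPM at E12.5 to 6.27 ± 1.47 at E14.5, 0.184 ± 0.217 in ISC and 0.0272 ± 0.0471 in AE. Fzd3, a receptor of the pathway, fell from 277 ± 21.0 through 72.4 ± 8.42 and 6.72 ± 1.5 to 1.84 ± 0.361 CPM, and Vangl2, a core polarity protein, from 67.6 ± 0.674 to 0.475 ± 0.322 CPM. At E14.5, where Fat4 was highest, Dchs1 was below its E12.5 level but above its level in both adult groups.

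The intermicrovillar adhesion complex, which links neighbouring microvilli of the brush border through the protocadherin-related Cdhr2 and Cdhr5, mostly rose. Of its 6 genes, 5 rose at the embryonic step, 5 rose and 1 fell to ISC, and 6 rose to AE, with medians of 1.48, 1.12 and 2.23. Cdhr2 averaged 9.48 ± 1.97, 43.6 ± 1.46, 115 ± 14.2 and 1514 ± 589 CPM, and Cdhr5 39.2 ± 9.95, 113 ± 1.30, 213 ± 15.3 and 3056 ± 926 CPM. Anks4b was the gene that fell to ISC, from 29.7 ± 1.83 to 18.4 ± 3.06 CPM (adjusted p = 0.00372). Of 6 other cadherin-related genes, 1 rose and 3 fell, then 1 rose and 5 fell, then 3 rose and 1 fell, with medians of -0.83, -1.5 and 0.67. Dsg2, a desmoglein counted also among the desmosomal genes, was the riser to ISC, from 214 ± 5.96 to 436 ± 69.8 CPM.

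Of 9 repressors and regulators of the cadherin switch, 4 rose and 2 fell to E14.5, 1 rose and 4 fell to ISC, and 2 rose and 5 fell to AE, with medians of 0.11, -0.01 and -0.58. Snai2 and Zeb1, repressors of Cdh1, were highest at E14.5 at 4.48 ± 0.865 and 4.05 ± 0.757 CPM. There Cdh1 was above its E12.5 level and most of the mesenchymal markers, though not Vim, were highest. The part of mesenchymal cells in these levels was not tested. Of 7 genes for cadherin processing, 2 rose at the first step, 2 rose and 3 fell at the second, and 5 rose and 1 fell at the last, with medians of 0.12, -0.07 and 0.89. The sheddase gene Adam10, whose product cleaves cadherins, was among the risers to AE, from 103 ± 5.36 to 169 ± 19.9 CPM. Of 6 known regulators of the Pcdh clusters, 2 fell, then 1 fell, and all 6 fell from ISC to AE, with medians of -0.16, -0.12 and -0.77. The list had 33.3% and 16.7% called at the first 2 steps, below the shares of all genes, and at the last 35.2% of all genes fell. Smchd1, whose product is known to silence clustered Pcdh genes, went from 364 ± 32.6 CPM at E12.5 through 247 ± 8.20 and 216 ± 18.8 to 120 ± 25.3 CPM, and the DNA methyltransferase gene Dnmt3b went from 18.3 ± 1.37 in ISC to 5.26 ± 2.67 in AE.

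The members that did not pass the filter were at the edge of detection. They were the 15 Pcdha rows, 9 Pcdhb rows, Pcdh10, Pcdh12, Pcdh20 and Cdh12, Cdh13, Cdh15, Cdh18, Cdh19, Cdh20 and Cdh22, each with a mean under 1 CPM in every group. A count of 0 over a group's 3 libraries allows up to 0.0371 CPM at E12.5, 0.0263 at E14.5, 0.0525 in ISC and 0.0605 in AE, for counting error only. Cdh20 was the highest of them in AE, at 0.175, 1.63 and 0.685 CPM, and its 3 libraries spread widely.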

How the data were processed

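The deposited values were raw read counts per gene symbol, 1 file a library. STAR 2.3.1z13, HTSeq 0.6.1p1, SAMtools 1.2, bcl2fastq 1.8.4 and DESeq2 1.6.3 are named with build mm9, per the submitters' processing notes; how each was run, the gene annotation and strand use were not given in the sources used here. Lines for unassigned reads were left out of the totals (33.4% to 58.1% of reads had no feature).

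Members and gene lists were chosen with earlier results of these data known. Outside the clusters, members with a mean of at least 1 CPM in a group were named, while of such clustered rows only some were. Of the lists, at most 4 genes were named, by the number of steps passed and then level. All 12 libraries entered 1 edgeR 4.0.16 quasi-likelihood fit (R 4.3.3, TMM factors 0.696 to 1.16, filterByExpr, Benjamini-Hochberg over 15342 genes). On simulated counts for AE against ISC with 15342 genes, 82% of 100 genes changed 2-fold and 98% of 100 changed 4-fold were called. The changed genes were drawn above a count limit, so these shares do not cover members at low counts. In the simulation 189 genes were called, against 10397 in the data. Bounds used a floor of 3 counts over a group; ratios on 1 to 3 counts carry exact intervals. Shared 50-base stretches and exon lengths came from GENCODE M21. DESeq2 1.42.0, limma 3.58.1, other scalings, filters and omitted libraries served as alternatives. Nothing says E14.5 libraries came from separate litters, so p-values may partly measure technical spread. Some genes of the lists are not reported here by name.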

Additional observations from a re-analysis of the deposited data

How the results depend on the processing

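Counts of called members stayed within 1.5 times of those reported under other scalings (relative log expression, upper-quartile), no filter, DESeq2, limma-voom and fits of the 2 groups alone, apart from the difference of steps outside the clusters, where limma-voom called 18 (12 higher, 6 lower) against 11. Under relative log expression factors the summed Pcdhb levels of ISC and AE libraries overlapped. Upper-quartile factors moved the summed Pcdhb level in E12.5 from 19.8 to 21.0 CPM and the Pcdhg level in E14.5 from 73.1 to 76.7. They also shifted the median gene by -0.20 for AE against ISC, -0.24 against E14.5 and -0.26 against E12.5, and by -0.18 for the difference of steps, which relative log expression shifted by 0.11. The cause of these moves was not tested. Leaving out 1 library at a time gave 20 to 23 called members outside the clusters and 26 to 31 within them for E14.5 against E12.5, 25 to 28 and 12 to 17 for ISC against E14.5, 11 to 13 and 19 to 21 for AE against ISC, and 8 to 13 and 4 to 7 for the difference of steps. ISC against E12.5 gave 28 to 30 and 33 to 35, AE against E14.5 27 to 30 and 30 to 32, and AE against E12.5 28 to 32 and 33 to 35. Of 288 calls on the 56 members with a mean of at least 1 CPM in a group, 20 were lost in at least 1 alternative, 268 in none, and none reversed. A call with no adjusted p in an alternative counted as held. Fits of the 2 groups alone covered 263 of the 288.

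The rise of Cdh17 from E14.5 to ISC was lost under relative log expression (adjusted p = 0.122), upper-quartile factors (0.0746), no filter (0.0669) and DESeq2 (0.0857), and without any of 10 libraries (0.0579 to 0.148). The rise of Fat4 to E14.5 was lost under relative log expression (0.0533) and DESeq2 (0.0893). Fat1 in AE against E12.5 was lost under upper-quartile factors (log2 0.28, adjusted p = 0.0817), and the difference of steps of Cdh3 under DESeq2 (0.148) and limma-voom (0.197). Deviations of samples with the same replicate number had correlations from -0.106 to 0.144. Between ISC and AE these were 0.035, 0.144 and 0.0716, where samples of unlike number gave -0.156 to 0.0731. Between E12.5 and AE the same-number values were all negative (-0.0949, -0.0785 and -0.106). With 3 libraries a group, such values cannot decide whether the numbers pair samples. With the replicate block the counts were 21 outside and 28 within the clusters for E14.5 against E12.5, 26 and 13 for ISC against E14.5, 11 and 19 for AE against ISC, and 11 and 5 for the difference of steps. The block ended the calls of Cdh17 (0.0724), Pcdhga1 (0.0518) and Pcdhb14 (0.053) from E14.5 to ISC, Pcdhb16 (0.0593) from E12.5 to E14.5, and Pcdhb14 (0.0614) and Pcdhb20 (0.0728) from ISC to AE. Depth limits the statements on members at 0 to the floors given, and those on Pcdhg rows are limited by shared sequence.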
